A study of Homo sapiens with 3 samples.

Results

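The 4 genes described here encode carriers of glutamine and other neutral amino acids: SLC38A1, SLC7A5, SLC1A5 and SLC38A10. They were taken by symbol from the deposited table, summed over the regions listed for each gene and also region by region, and are 4 of the 5932 genes in that table. They were selected on measured values, namely their reads-per-million values (RPM) in the control and their near absence from both deprived libraries, so the levels and ratios of these genes are given as a description and no test is applied to them. Cells of 95D, a human lung cancer line with the genotype given as WT, were grown as a control, without glucose for 48 h, or without glutamine for 48 h. Both deprived cultures had dialyzed serum, while the kind of serum in the control over those hours is not stated in the labels. The labels' protocols describe, for all 3 samples, RNA captured from cell lysate with biotinylated DAMER, a long non-coding RNA made in vitro, although the sample titles name RNA-Seq alone. Each condition had 1 library, so no difference below has a replicate check, and each interval covers counting error only. The treatment cannot be told apart from anything else that differed between single libraries, and, because lysates came from whole cultures, fewer cells and less RNA per cell cannot be told apart.

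Glutamine enters cells through sodium-coupled carriers such as SLC38A1 (also called SNAT1) and through SLC1A5 (ASCT2), which swaps one neutral amino acid for another across the plasma membrane. SLC7A5 (LAT1), held at the membrane by its partner SLC3A2, exchanges internal amino acids, glutamine among them, for leucine and other large neutral amino acids, which feed mTORC1 signalling. SLC38A10 belongs to the same family as SLC38A1 and is less studied. When amino acids run short, the kinase GCN2 slows general translation but favours that of the transcription factor ATF4, which acts on genes of amino acid uptake and synthesis. MYC is another known activator of glutamine carriers.

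The start regions of SLC7A5 and SLC1A5 are shown because these genes are known targets of those factors and because neither gene had a single fragment in either deprived library. A count of 0 was shared by 90.9% of genes tested in the glucose-deficient library and 99.2% in the glutamine-deficient library, so it does not set these genes apart. The sequences are the 250 bases before the first annotated start in RefSeq (GRCh38.p14), read 5′ to 3′ on the gene's strand. Capitals mark matches on either strand to an E-box (CACGTG), a GC box (GGGCGG, or CCGCCC on the other strand) or a CCAAT box, none of which overlapped another. The SLC7A5 window lies at chr16:87869508-87869757 on the minus strand.

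SLC7A5 start region: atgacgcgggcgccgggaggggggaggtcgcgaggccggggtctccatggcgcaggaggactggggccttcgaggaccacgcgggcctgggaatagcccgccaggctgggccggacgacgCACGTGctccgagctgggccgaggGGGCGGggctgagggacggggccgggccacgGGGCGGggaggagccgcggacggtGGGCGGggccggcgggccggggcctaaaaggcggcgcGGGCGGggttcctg

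The SLC1A5 window lies at chr19:46788595-46788844 on the minus strand.

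SLC1A5 start region: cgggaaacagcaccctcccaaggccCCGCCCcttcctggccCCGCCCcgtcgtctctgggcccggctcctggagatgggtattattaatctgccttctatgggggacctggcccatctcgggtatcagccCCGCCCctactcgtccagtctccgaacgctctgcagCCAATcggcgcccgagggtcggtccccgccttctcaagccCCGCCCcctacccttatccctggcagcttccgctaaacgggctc

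SLC7A5 held 1 E-box, whose first letter is 130 bases before the start, and 4 GC boxes, while SLC1A5 held 4 GC boxes and 1 CCAAT box, the latter 84 bases before the start. Over all 35116 windows of this length in the RefSeq table, 6.34% held CACGTG, 42.6% held the GC box and 32.0% held CCAAT on either strand. The core of the amino acid response element that ATF4 is known to bind, TGATGNAA, occurred in 3.14% of windows and in neither of these stretches. The windows before 2 internal starts of SLC1A5 each overlap 2 of the gene's own exons. One of them held 1 E-box, 50 bases before its start. The other held the core 97 bases before its start. The stretch around that core, at chr19:46784894-46784921 on the minus strand, is shown with the match in capitals.

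SLC1A5 response element core: aggaagtggcTGATGCAAgctgtccagg

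These matches are letters in a sequence window. Whether a factor binds them was not measured, and the window of SLC38A10 and both windows of SLC38A1 held no TGATGNAA.

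Library depth differed. The control held 3781862 fragments, the glucose-deficient library 18775818 and the glutamine-deficient library 18301606, so that 3 fragments, the floor used for a gene at 0, were 0.793, 0.160 and 0.164 RPM. ATF4 stood at 237 RPM in the control, 998517 RPM without glucose and 998557 RPM without glutamine, and with its pseudogene copies it made up 0.0253%, 99.9% and 99.9% of fragments. All other RNA was thus read with 3780904 fragments in the control but with only about 12936.5 and 14450 in the deprived libraries. The totals were inferred from the RPM worth of 1 fragment, which is known only to the decimals deposited. The deprived figures are small remainders of large totals, so they are approximate by a margin that was not measured. Markers of the line were sparse in the control: KRT8 (6.48 RPM) was listed of 6 epithelial genes, VIM (77.7 RPM) of 3 mesenchymal genes, none of 4 lung lineage genes, and CSF1R (10.3 RPM) of 5 leukocyte genes, with no fibroblast, endothelial or erythroid marker listed. None of these markers had a fragment in a deprived library, and their part in the results was not tested.

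In the control, the 4 genes together held 1851.5 fragments, or 493 RPM, which is 0.0490% of that library, and SLC38A1 alone supplied 56.4% of them. Fragments recovered from RPM come in steps of 0.5. SLC38A1 (ENSG00000111371, chr12:46183063-46270017, minus strand, GRCh38, GENCODE release 29) ranked 66 of 5932 genes with 278 RPM from 1045 fragments (95% Poisson interval of 259.8 to 293.6 RPM). SLC7A5 (ENSG00000103257, chr16:87830023-87869488, minus strand) ranked 227 with 134.6 RPM from 505.5 fragments (122.3 to 145.8). SLC1A5 (ENSG00000105281, chr19:46774883-46788594, minus strand) ranked 565 with 73.8 RPM from 276.5 fragments (64.7 to 82.3). SLC38A10 (ENSG00000157637, chr17:81245000-81295547, minus strand) was far down the order at 4595, with 6.61 RPM from 24.5 fragments (4.17 to 9.60). The median gene had 14.8 RPM, so 3 of the 4 lay above it and SLC38A10 below. A rank on RPM favours long genes, so levels were compared per kilobase (kb) of annotated exon.

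Per kb the order changed at the top. SLC7A5 had a control level of 28.2 RPM per kb (25.8 to 30.7), SLC38A1 27.6 (25.9 to 29.3), SLC1A5 21.9 (19.4 to 24.7) and SLC38A10 0.840 (0.541 to 1.24). SLC7A5 and SLC38A1 did not differ beyond counting error, with a ratio of 1.02 (exact conditional binomial interval 0.916 to 1.14). SLC38A1 lay 1.26 times above SLC1A5 (1.10 to 1.44) and SLC7A5 1.28 times above it (1.11 to 1.49). The gap to SLC38A10 was of another order, 26.1 times for SLC1A5 (17.3 to 41.3), 32.9 times for SLC38A1 (22.1 to 51.3) and 33.6 times for SLC7A5 (22.4 to 52.6). The place of SLC1A5 in this order does not depend on the 1 region that an antisense gene shares with it, but the sizes of the gaps do. Without the fragments of that region, but with the exon length kept whole, SLC1A5 stood at 11.6 RPM per kb (9.82 to 13.7). On that basis SLC38A1 lay 2.37 times (1.99 to 2.84) and SLC7A5 2.42 times (2.01 to 2.93) above SLC1A5. Even so SLC1A5 lay 13.8 times above SLC38A10 (8.99 to 22.2). Any exon bases of the dropped region stay in the divisor, so 11.6 is a low figure for SLC1A5 and the gaps above it are high ones. Only listed regions count toward these levels, so a gene with few regions may be under-read by a margin that was not measured.

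**Figure D1:**
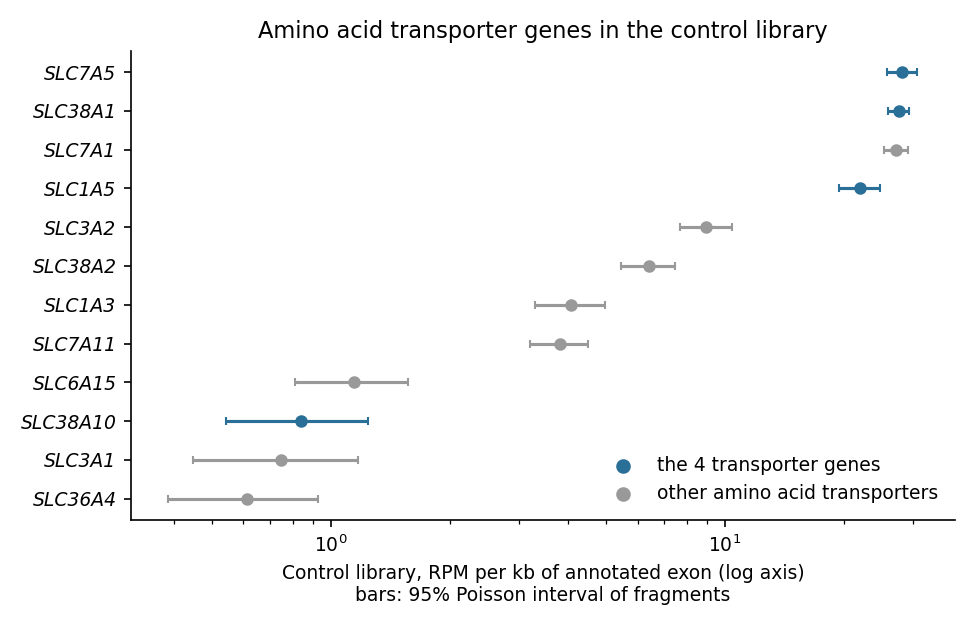
Control level of the 4 transporter genes (blue) and of 8 other amino acid transporters in the table (grey), in RPM per kb of annotated exon on a log axis, with 95% Poisson intervals of fragments from 1 library. SLC7A5, SLC38A1 and SLC1A5 sit with SLC7A1 between 21.9 and 28.2, and SLC38A10 sits at 0.840 among the lowest. SLC1A5 would sit at 11.6 without the fragments of the region it shares with an antisense gene, with its exon length kept whole.

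The genes also differed in how their control signal was spread over listed regions, which the table names by gene only; whether a region is exonic or intronic was not analysed here. SLC38A1 had 13 regions, a number reached or passed by 51 of 5932 genes (0.860%), whereas the median gene had 1. Its regions ran from 5.55 to 49.7 RPM with a median of 17.6, an 8.95-fold range, and the highest 4 held 49.7, 42.0, 36.4 and 32.8 RPM. No single region dominated SLC38A1: the top region held 17.9% of its fragments and the top 3 held 46.2%.

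SLC7A5 was more uneven. Its 7 regions held 59.9, 30.4, 18.4, 10.97, 6.48, 4.63 and 3.83 RPM, a 15.6-fold range, with 44.7% of fragments in the top region and 81.0% in the top 3. The top region of SLC7A5, at 59.9 RPM, was the highest of all 26 regions of the 4 genes. SLC1A5 had 5 regions at 34.5, 14.1, 9.39, 8.20 and 7.54 RPM, with 47.0% of its fragments in the first. SLC38A10 rested on 1 region, as did 3128 of the 5932 genes (52.7%).

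The top region of SLC1A5 carries a caveat of its own. The table lists the same values for AC008622.2 (ENSG00000275719, chr19:46787815-46789043, plus strand), an antisense gene that overlaps SLC1A5 over 780 bases, chr19:46787815-46788594, within the exon of SLC1A5 at 46787400 to 46788594. The labels do not state whether strand was used in counting, so reads of the pair cannot be told apart. Without this region SLC1A5 held 39.3 RPM from 146.5 fragments in 4 regions, in place of 73.8 RPM. AC008622.2 also spans the SLC1A5 start region printed above.

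The comparison of glucose-deficient with control cells asks which RNAs in the captured material differed after glucose was withdrawn. Glucose-deficient cells gave no fragment in any of the 26 regions of the 4 genes, whereas 9.07% of the genes tested had at least 1 fragment there and 3.15% at least 2. SLC38A1 was deposited at 278 RPM in the control and 0.346 RPM without glucose, SLC7A5 at 134.6 and 0.186 RPM, SLC1A5 at 73.8 and 0.133 RPM, and SLC38A10 at 6.61 and 0.0266 RPM. The glucose-deficient values are only the offset of 0.5 fragment that the deposited values carry for each region, 0.0266 RPM apiece, so they count regions and not reads. On the log2(RPM + 1) scale the ratios were −7.70 for SLC38A1, −6.84 for SLC7A5, −6.04 for SLC1A5 and −2.89 for SLC38A10, a scale that understates the difference of low genes. All 4 were at least 2-fold lower relative to all reads, as were 99.9% of 5931 genes tested, though SLC38A10 turned to higher under each of the 3 other scalings tried. Between 40.7% and 74.8% of all genes tested were also called higher under those scalings. Those scalings add 0.5 fragment to each gene, so the sign of a low gene at 0 deprived fragments, such as SLC38A10 here, is set by that addition. A deprived count of 0 was shared with 90.9% of genes, so neither count sets the 4 genes apart.

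Against a floor of 3 fragments, SLC38A1 was at least 1729-fold lower without glucose, SLC7A5 at least 837-fold, SLC1A5 at least 458-fold and SLC38A10 at least 40.5-fold, all relative to total reads. The lower ends of the exact intervals, which include the control's own counting error, were 1404, 678, 370 and 30.6. These bounds follow the control levels of the genes, because the deprived count was 0 for each. They are not 4 separate measures of how far apart each gene lay. They also include the fall of all reads outside ATF4 and its copies, from 99.97% of fragments in the control to 0.0689% without glucose.

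**Figure D2:**
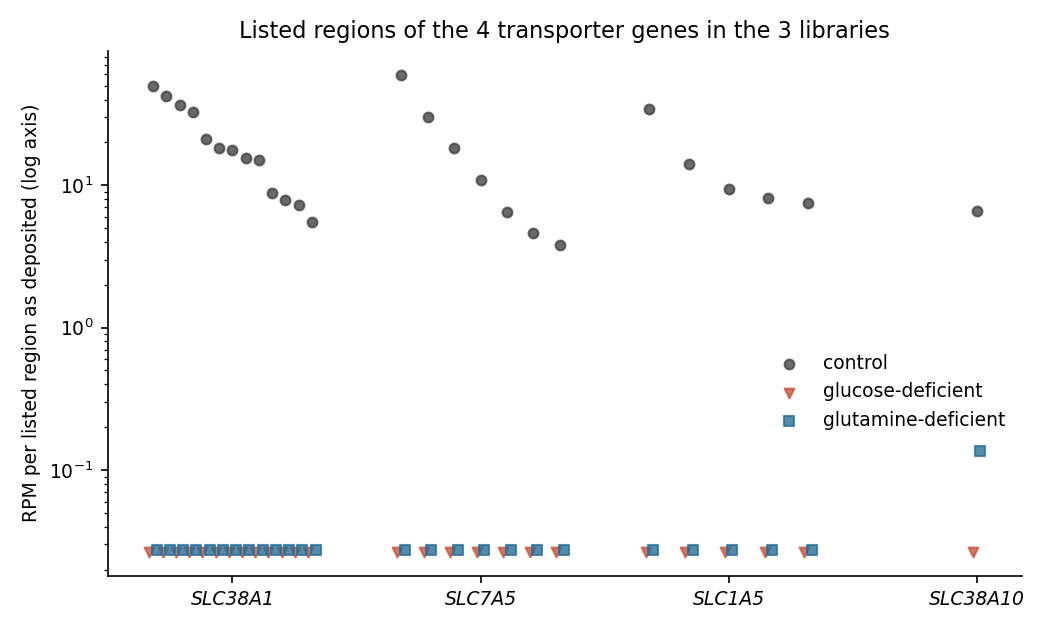
Every listed region of the 4 genes (1 point per region and library), in deposited RPM on a log axis, with regions ordered by control level. The control regions lie between 3.83 and 59.9 RPM, all deprived regions lie at the offset of 0.0266 or 0.0273 RPM, and SLC38A10 without glutamine, at 0.137 RPM, is the one exception.

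The comparison of glutamine-deficient with control cells bears most directly on these genes, since their proteins carry the nutrient that was withdrawn. Of the 26 regions, 25 had no fragment without glutamine. SLC38A1 was deposited at 278 RPM in the control and 0.355 RPM without glutamine, SLC7A5 at 134.6 and 0.191 RPM, and SLC1A5 at 73.8 and 0.137 RPM, again the offset alone. SLC38A10 was also deposited at 0.137 RPM, but there the value stands for 2 fragments in 1 region, whereas in SLC1A5 it stands for 5 empty regions. The same deposited number thus has a different content in the 2 genes.

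The log2(RPM + 1) ratios without glutamine were −7.69 for SLC38A1, −6.83 for SLC7A5, −6.04 for SLC1A5 and −2.74 for SLC38A10. All 4 were again at least 2-fold lower relative to all reads, as were 99.9% of 5928 genes tested, with SLC38A10 again higher under each of the 3 other scalings. Between 49.5% and 76.3% of all genes tested were also called higher under those scalings. A count of 0 was found for 3 of the 4 genes and for 99.2% of all genes tested, and SLC38A10 was among the 0.776% with at least 1 fragment. SLC38A1 was at least 1686-fold lower, SLC7A5 at least 815-fold and SLC1A5 at least 446-fold, with lower ends of the exact intervals at 1368, 661 and 360. SLC38A10 was 59.3-fold lower relative to total reads, with a wide interval of 14.8 to 517. All these values include the fall of reads outside ATF4 and its copies to 0.0790% of fragments without glutamine. The 2 comparisons share the control library, so the likeness of their ratios is no separate evidence.

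SLC38A10 was 1 of 16 genes (0.27% of those tested) with at least 2 fragments without glutamine. The others were ATF4 with 2 of its pseudogenes and RNF157, which has the same values as one of them, 8 mitochondrial genes, RAD51B with 12 fragments, and AC073073.1 and TPT1P9 with 2 each. SLC38A10 thus stood at the lowest end of that group, and it was picked out here after its value was seen. Whether both fragments come from separate molecules was not measured.

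**Figure D3:**
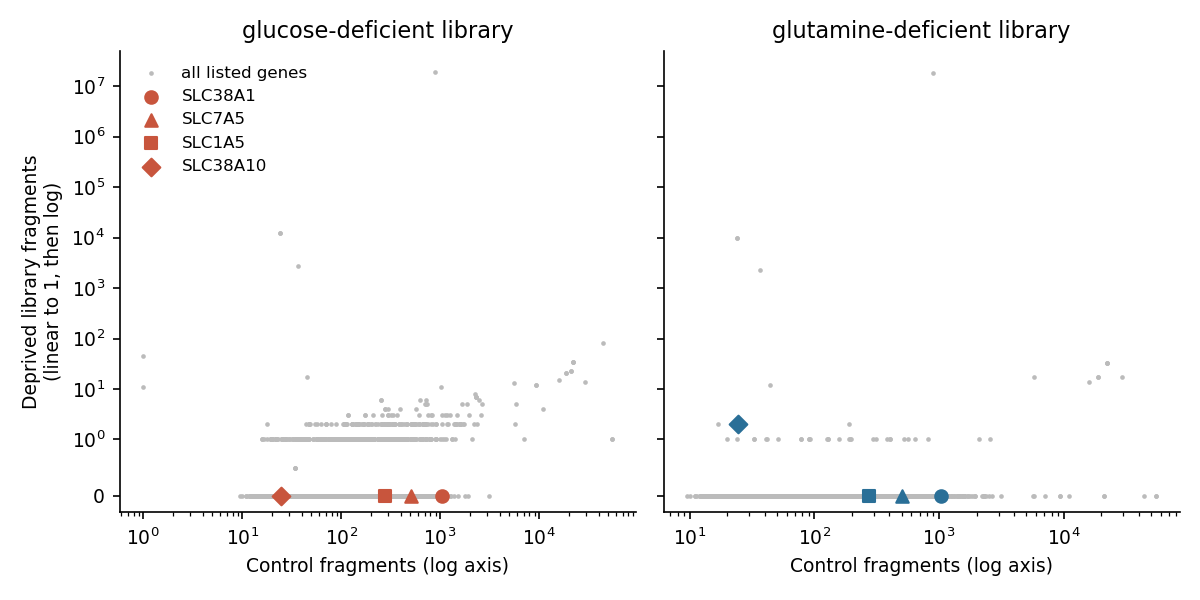
Fragments of every listed gene in the control (log axis) against each deprived library (linear to 1, then log), with the 4 transporters marked; genes with no control fragment are not drawn. The transporters lie on the line of 0 fragments, with 1045 control fragments for SLC38A1 at the right, except SLC38A10 without glutamine at 2 fragments.

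Because ATF4 took nearly all deprived reads, the values were also set against the reads outside ATF4 and its copies. On that scale, written as outside-ATF4 RPM, the control levels were 276 for SLC38A1 (259.9 to 293.7), 133.7 for SLC7A5 (122.3 to 145.9), 73.1 for SLC1A5 (64.8 to 82.3) and 6.48 for SLC38A10 (4.17 to 9.60). A count of 0 allows up to 285 outside-ATF4 RPM without glucose and up to 255 without glutamine. That limit lies above the control level of every one of the 4 genes without glucose, and above all but SLC38A1 without glutamine. It rests on the approximate totals outside ATF4, so the side of the limit on which SLC38A1 falls is not resolved. A lower level of SLC7A5, SLC1A5 or SLC38A10 among the remaining RNAs was therefore not detectable at this depth.

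The upper end of the ratio of SLC38A1 to the control on this scale was 1.03 without glucose and 0.925 without glutamine. Both ends lie too near 1 to be placed above or below it, because the intervals leave out the uncertainty of the totals. For SLC7A5 the upper ends were 2.14 and 1.92, and for SLC1A5 3.93 and 3.51. What counts the 4 genes would be read with at an ordinary rate depends on the reads taken as ordinary. All reads outside ATF4 and its copies numbered 3.42 without glucose and 3.82 without glutamine for each 1000 in the control, but the listed regions, with the ATF4 copies, RNF157 and mitochondrial genes left out, kept only 1.42 (1.34 to 1.51) and 0.0807 (0.0614 to 0.104). At the rate of all other reads the 4 genes would have 6.33 fragments without glucose and 7.08 without glutamine, and at the rate of listed regions 2.63 and 0.149. SLC38A1 would have 3.58 and 3.99 fragments at the first rate and 1.49 and 0.0844 at the rate of listed regions. SLC7A5 would have 1.73 and 1.93 at the first rate and 0.718 and 0.0408 at the other, and SLC1A5 0.946 and 1.06 against 0.393 and 0.0223. Counts of 0 in these 3 genes therefore do not set them below the other listed regions. A control count of 1754 fragments would be needed for 0 fragments to bound a 2-fold lower level without glucose and 1570 without glutamine, more than any of the 4 genes had.

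For SLC38A10 the direction turned on this scale. Its 2 fragments without glutamine are 138 outside-ATF4 RPM (16.8 to 500.0), 21.4 times its control level (2.45 to 85.8). SLC38A10 was picked out after this count was seen, so that interval is no evidence of a rise. At this depth 3 fragments are already 208 outside-ATF4 RPM, so very few fragments place a gene with a control level of 6.48 many-fold higher. With ATF4 and its copies out of the totals, 55.5% of all genes tested were called higher without glutamine, with a part of a fragment added to each gene. Without glucose the count of 0 for SLC38A10 allows a ratio of up to 47.5. The intervals of the 2 deprived libraries overlap for this gene.

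**Figure D4:**
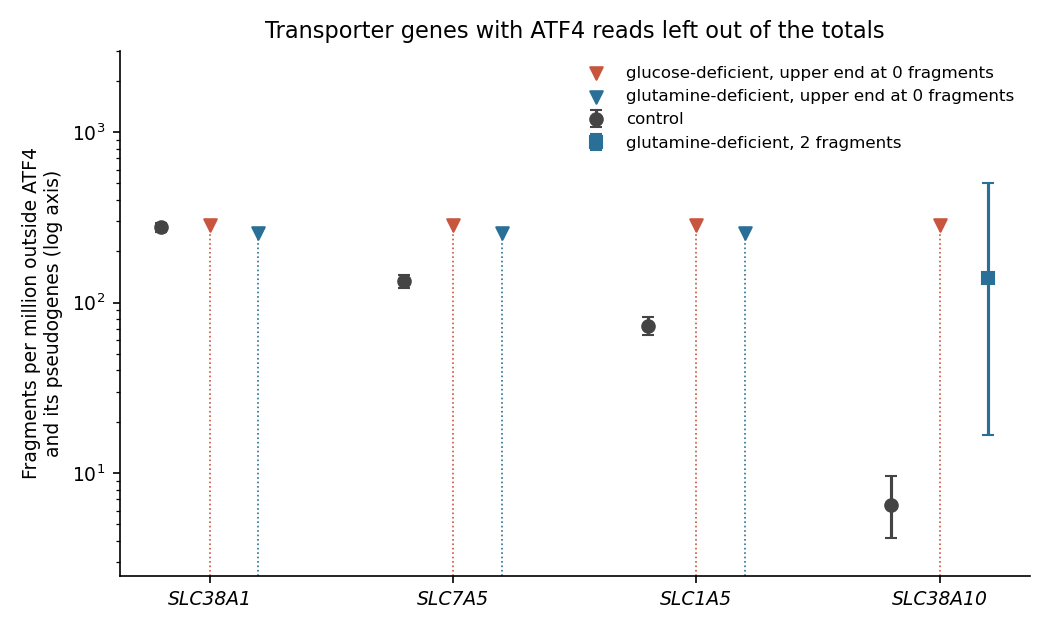
The 4 genes in outside-ATF4 RPM, that is relative to the reads outside ATF4 and its copies (log axis): control values and the 2 fragments of SLC38A10 with 95% Poisson intervals, and triangles for the upper end of the interval where a deprived library had 0 fragments. The triangles, at 285 and 255, lie above the control points of SLC7A5, SLC1A5 and SLC38A10, and close to the 276 of SLC38A1.

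The deprived libraries were also compared with each other, which asks whether loss of glucose and loss of glutamine differ. No member reached 1 RPM in either, the level needed to be tested, so 0 of the 4 entered that comparison. Of the 16 genes that did, 3 (18.8%) differed at least 2-fold. SLC38A1, SLC7A5 and SLC1A5 had 0 fragments in both libraries, and SLC38A10 had 0 without glucose and 2 without glutamine.

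Of 44 other amino acid transporter genes looked up, 8 were listed. All 8 were at least 2-fold lower relative to all reads in both comparisons, as were 99.9% of all genes tested. Their median log2 ratio was −4.85 without glucose and −4.84 without glutamine. The 4 members had medians of −6.44 in both comparisons, and all genes tested had −3.92 and −3.93. With so many deprived counts at 0, such a median mainly reflects control level. With ATF4 and its copies out of the totals, and with that same addition, the 8 relatives split into 0 lower and 3 higher without glucose and 1 lower and 3 higher without glutamine. Over all genes tested, the same scaling gave 5.97% lower and 62.4% higher without glucose and 10.1% lower and 55.5% higher without glutamine.

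SLC7A1, the cationic amino acid carrier CAT1, was the highest relative at 209 RPM in the control, 1 fragment without glucose and 0 without glutamine. SLC3A2, the heavy chain that SLC7A5 needs at the membrane, held 46.9 RPM in the control and no fragment in either deprived library. Per kb, SLC3A2 stood at 8.96 RPM (7.69 to 10.4), below its partner SLC7A5 at 28.2. SLC38A2 (SNAT2), the close relative of SLC38A1 that amino acid shortage is known to induce, held 42.7 RPM, or 6.41 RPM per kb, in the control. SLC7A11, the cystine and glutamate exchanger, held 37.3 RPM, the glutamate carrier SLC1A3 26.2 RPM and the neutral amino acid carrier SLC6A15 10.3 RPM, and none of these had a deprived fragment. Nor had 90.9% of all genes tested without glucose and 99.2% without glutamine.

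Among 22 genes for enzymes that make or use glutamine and glutamate, 15 were listed. All 15 were at least 2-fold lower relative to all reads in each comparison, as were 99.9% of all genes tested. Their medians were −4.25 in both. With ATF4 and its copies out of the totals, none of the 15 was 2-fold lower in either comparison, and 9 without glucose and 7 without glutamine were 2-fold higher, against 62.4% and 55.5% of all genes tested, so nothing about these enzymes is read from the counts. ASNS, which uses glutamine to make asparagine, was highest in the control at 67.4 RPM and was the only one with deprived fragments, 6 without glucose and 0 without glutamine. PSAT1, of serine synthesis, held 65.3 RPM, GFPT1, of hexosamine synthesis, 35.4, CAD, of pyrimidine synthesis, 29.2, and GMPS, of guanine nucleotide synthesis, 22.1. GLUD2, a glutamate dehydrogenase listed at 20.5 RPM, is nearly identical to GLUD1, so its reads are uncertain. GLUL, which makes glutamine, at 20.2 RPM was named after its value was seen. Of 20 genes of amino acid sensing and its response, 8 were listed, of which ATF4 alone was higher relative to all reads and the other 7 had no deprived fragment. Such a count of 0 was shared by 90.9% of genes tested without glucose and 99.2% without glutamine, so it does not set the 7 apart.

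The genes nearest to each member over the 3 libraries, by Euclidean distance of log2(RPM + 1), were mostly those with a like control level, number of regions and empty deprived counts. For SLC38A1 these were ANKRD11 (distance 0.0339), SPEN (0.0944) and DDX21 (0.0951), of which SPEN had 2 fragments and DDX21 had 1 without glucose. For SLC7A5 they were ZNF146 and ZNF565, listed with the same values (0.00705), and SON (0.0399). For SLC1A5 they were STX16 and its read-through gene STX16-NPEPL1, also listed with the same values (0.00509), and DCP1A (0.0154). For SLC38A10 they were POLR2F (0.0754), with 1 fragment without glutamine, CABIN1 (0.124) and RBM22 (0.146). A likeness over 3 libraries is a description, and here it is set largely by the control.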

How the data were processed

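One library of each condition was analysed. HISAT2 2.0.5 and the build hg38 are named in the submitters' processing notes. Nothing in the sources used here names the region caller, the annotation or the use of strand. Values were deposited by the authors as RPM per the file headers, in a table with 1 block per deprived library, each beside the control. The design had allowed for this unit. One label conflicts with the table: it points the glutamine-deficient sample to the glucose column. The file of that sample equals the glutamine column, which was used.

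RPM rose in steps with an offset of 0.5 fragment per region. Library totals were inferred from the size of the step, and no interval covers the rounding of that step. Taking the offset off and rounding to 0.5 fragment gave whole fragments for 63.3% of values in the control, 99.96% without glucose and 99.97% without glutamine. A gene was the sum of its listed regions. Ratios used log2(RPM + 1) for genes that reached 1 RPM in a library of the pair and were called past 2-fold, with no p-value. Bounds, per-kb levels and 95% intervals used fragments without the offset. PCR copies are not independent molecules, so intervals cover counting error only. A gene at 0 was bounded with 3 fragments.

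Coordinates and exon lengths came from GENCODE release 29 and start regions from RefSeq GRCh38.p14. Members, gene lists and the rule for named genes were chosen with earlier results of these data known. That rule took the 4 members, ATF4, list genes among the 6 highest in the control or with a deprived fragment, and the 3 nearest genes of each member. Alternatives were other pseudocounts, filters, scalings and region choices. The scripts were tested on simulated data whose deprived counts followed the control rate at full depth. That test does not reach the nearly empty deprived counts seen here. Scaling factors came from edgeR 4.0.16 (TMM) and DESeq2 1.42.0 (median of ratios) in R 4.3.3, and the rest from scipy 1.17.1, numpy 2.4.6, pandas 2.3.3 and matplotlib 3.10.9 in Python 3.11.15.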

Additional observations from a re-analysis of the deposited data

How the results depend on the processing

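Scaling decided the counts. Genes lower without glucose numbered 5924 relative to all reads, 924 with TMM, 165 with median-of-ratios scaling, 354 with ATF4 and its copies out of the totals, and 3756 with a filter at 10 RPM, which tests fewer genes. Without glutamine the numbers were 5924, 746, 206, 601 and 3756. The median of all genes moved from −3.92 to 0.63, 2.07 and 1.53 without glucose and from −3.93 to 0.98, 2.23 and 1.24 without glutamine, in the same order of scalings. The members at least 2-fold lower went from 4 to 2 without glucose with median-of-ratios scaling and to 2 with ATF4 out, and from 4 to 1 without glutamine with median-of-ratios scaling. SLC38A10 reversed under the 3 scalings, to log2 ratios of 1.65, 3.09 and 2.55 without glucose and 4.45, 5.70 and 4.71 without glutamine. In the same order, 40.7%, 74.8% and 62.4% of all genes tested were called higher without glucose and 49.5%, 76.3% and 55.5% without glutamine. SLC38A1 was called lower under each scaling, at −2.30 and −2.01 with median-of-ratios scaling, but these scalings add 0.5 fragment to each gene. The calls of genes at 0, SLC38A1 among them, rest on that addition and are no bound: its fragments bound no 2-fold lower level once ATF4 is out of the totals. Median-of-ratios factors rest on 23 of 5928 genes with fragments in all libraries. Dropping the SLC1A5 region shared with its antisense gene, an alternative chosen after seeing the data, left the SLC1A5 ratio at −5.19 and −5.18. The SLC1A5 control level was then 11.6 RPM per kb in place of 21.9, with the exon length kept whole. Other pseudocounts, the offset taken off, no filter, and the highest region alone kept 4 of 4 members lower. The same settings called 5924 genes lower in each comparison, except that a pseudocount of 5 RPM gave 5382 of 5931 without glucose and 5383 of 5928 without glutamine. The members were chosen for near absence from the deprived libraries, so these unchanged calls are no evidence about them. No comparison of the members between the deprived libraries was possible: all their deprived values are under the pseudocount of 1 RPM, so a 2-fold call cannot be reached. No paired analysis was possible because each condition had 1 library. For the same reason no library could be left out.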
